A study of Mus musculus with 3 samples.

Results

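Cornified envelope and epidermal differentiation genes, which build the dead outer layer of skin, were followed in sorted medullary thymic epithelial cells of 3 mouse genotypes. The set holds every gene with an array probe set of its own in the Lce, Sprr and S100a families, without S100a8 and S100a9. To these were added Ivl, Lor, Flg2, Rptn, Tchh, Hrnr, Crnn, Asprv1, Cnfn, Tgm1, Tgm3, Casp14 and Cdsn. Flg, also on the list, had no single-symbol probe set in the platform annotation and was not analysed here. That gave 57 of the 19937 genes with a single symbol, chosen by name, though with earlier results of these data known. For the gene with more than 1 probe set, S100a11, the brighter one was used.

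In skin, a keratinocyte that dies at the surface replaces its membrane with a shell of proteins cross-linked by transglutaminases. Involucrin, loricrin and the small proline-rich (Sprr) and late cornified envelope (Lce) proteins are the bricks of that shell, and fused-type S100 proteins such as filaggrin, hornerin and trichohyalin bind keratin filaments beneath it. Most of these genes lie side by side in the epidermal differentiation complex, together with the S100a calcium-binding proteins. Medullary thymic epithelial cells express many tissue-restricted genes, some of them through the nuclear protein Aire, and some of these cells take on keratinocyte-like features late in life.

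All libraries came from thymi of mice aged 6 weeks, labelled strain C57b/6, typically pooled from 3 mice. The cells were sorted as EpCAM+, CD45-, Ly51low and MHC-II high, and their amplified RNA went to an Affymetrix Mouse Gene 1-ST array. WT mice were Sirt1fl/fl without Cre, Sirt1cKO mice were Sirt1fl/fl with Foxn1-Cre, which acts in thymic epithelium and removes the deacetylase Sirt1 there, and AireKO mice were Aire-/- in the whole body. The label of AireKO names no floxed Sirt1 allele, so its genotype and that of WT differ in more than Aire as labelled. Each genotype had 1 library, so no test could be made, no error can be given, and every difference describes a pair of libraries and not the conditions.

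Levels are log2 intensities, and a difference is a knockout library minus WT on that scale. The free-text descriptions of the 2 knockout libraries name each other's genotype. The names AireKO and Sirt1cKO follow the titles and the genotype fields, and every direction rests on them. Aire stood at 11.97 in WT, 11.55 in AireKO and 11.24 in Sirt1cKO, and Sirt1 at 11.40, 11.42 and 11.27. Where these probe sets lie relative to the deleted parts was not examined, so the values check no label. Xist stood at 12.17, 6.75 and 11.46 and the Y-linked gene Eif2s3y at 4.23, 9.75 and 8.92, so genotype and sex of the pooled mice cannot be told apart. H2-Ea, an MHC class II gene that C57BL/6 mice lack in expression, stood at 5.60, 13.23 and 5.90, so AireKO and strain background cannot be told apart either. All 13 markers of mature medullary cells were above background in every library. In bulk cells, fewer cells of a type and less RNA per cell cannot be told apart.

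Most members were detected in these cells. A level was called above background when it exceeded the 95th percentile of 1027 olfactory receptor genes in the same library, which lay at 6.02 in WT, 6.89 in AireKO and 6.34 in Sirt1cKO. By that measure 39 of the 57 members, or 68.4%, were above background in WT, where 72.7% of all genes were. In AireKO 35 members were, or 61.4%, beside 56.1% of all genes, and in Sirt1cKO 40, or 70.2%, beside 67.1%. In all, 42 members were above background in at least 1 library, 73.7% of them, and so were 73.4% of all genes. A total of 34 were above background in every library.

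The 15 members within background everywhere were Flg2, 5 Sprr2 genes and 9 Lce genes, with levels between 3.94 and 6.17. Detection thus differed by family. All 12 S100a genes, all 4 enzymes and all 3 of Lor, Ivl and Cnfn were above background in at least 1 library, as were 4 of 5 fused-type S100 genes, 8 of 13 Sprr genes and 10 of 19 Lce genes. Lce and Sprr2 genes are close copies of each other, and how far their probes share signal was not tested.

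**Figure D1:**
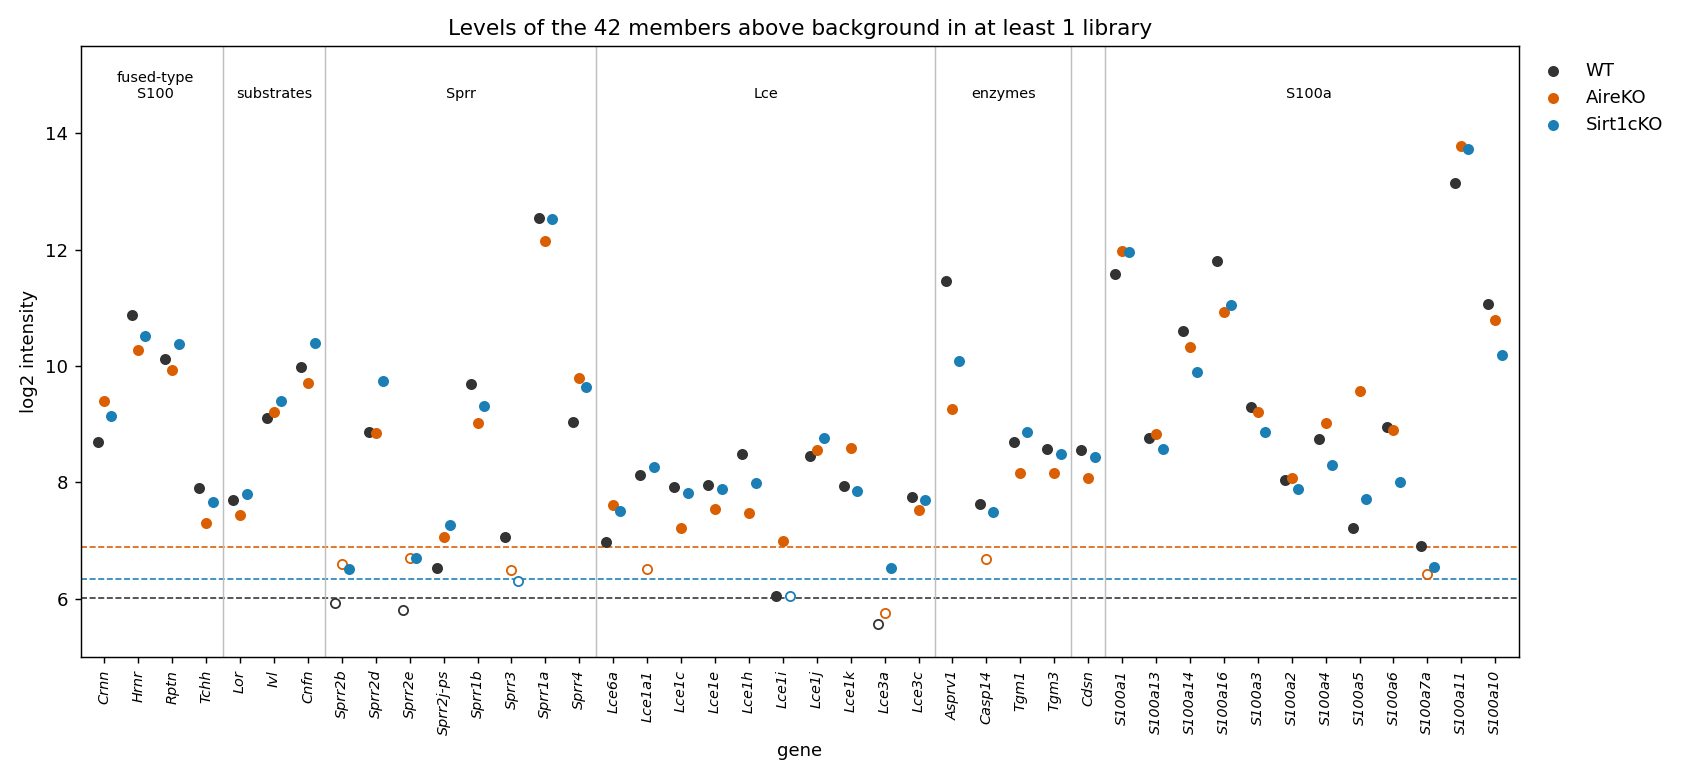
Log2 intensity (vertical axis) of the 42 members above background in at least 1 library, with 1 point for each library and genes grouped by role. Dashed lines mark the background of each library and open points a value within it; points are to be compared within a gene, since different probe sets have no common scale. Asprv1 is the gene with the widest gap below WT and S100a5 the one with AireKO farthest above WT.

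The genes at least 2-fold apart from WT were few. In AireKO, 3 of the 39 measured members were at least 2-fold lower than in WT, Asprv1, Lce1a1 and Lce1h, and 1 was at least 2-fold higher, S100a5. A gene counted as measured when its highest level reached the median of all values, 6.81. This filter kept 39 members and left out 18, and it can keep a gene for its level in a single library. The 3 lower members are 7.69% of those measured, beside 8.46% of all measured genes, and the 1 higher member is 2.56%, beside 2.68%. In Sirt1cKO only Asprv1 passed 2-fold on the lower side, 2.56% of the measured members beside 1.68% of all measured genes. On the higher side 0 members did, beside 0.804% of all measured genes. At 2-fold the members' shares in AireKO were therefore close to the background in both directions.

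At 1.5-fold some shares departed from it. In AireKO 7 measured members were higher, or 17.9%, beside 8.52% of all measured genes, and 9 were lower, or 23.1%, beside 23.6%. The 7 were Crnn, Lce1i, Lce1k, Lce6a, S100a5, S100a11 and Sprr4. Lce1i passed the filter through AireKO alone, which favours that direction. In Sirt1cKO 6 were lower, or 15.4%, beside 8.27%, and 4 of them were S100a genes. Sprr3, also among the 6, passed the filter through WT alone. Another 3 were higher, or 7.69%, beside 4.01%, namely Sprr2d, Sprr2j-ps and Sprr4. Sprr2j-ps passed the filter through the knockout libraries and not through WT. No test was made of these shares.

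The median difference of the 39 measured members was -0.26 in AireKO and -0.08 in Sirt1cKO, beside -0.19 and -0.07 over all 12556 measured genes. Over all 57 members it was -0.02 and 0.05, and over all genes 0.02 and 0.00. The members' median in AireKO came to -0.12 after quantile normalization, -0.08 after loess and 0.01 after median centring, so it has no settled sign. Both comparisons share the WT library.

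The envelope substrates that belong to no large family differed little. Involucrin, Ivl, an early scaffold of the envelope, stood at 9.11 in WT, 9.20 in AireKO and 9.41 in Sirt1cKO. Loricrin, Lor, its most abundant late substrate in skin, stood at 7.70, 7.44 and 7.79. Cornifelin, Cnfn, stood at 9.98, 9.71 and 10.40. None of the 3 was as much as 1.5-fold from WT in either knockout library. In Sirt1cKO all 3 were above WT, by 0.10 to 0.42, and they stayed above it under every scaling tried. In AireKO Cnfn and Lor were below WT and Ivl above it, and after median centring all 3 were above it.

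Fused-type S100 genes, whose long repeat proteins bind keratin filaments, were present without a shared direction. Hornerin, Hrnr, stood at 10.87 in WT, 10.28 in AireKO and 10.52 in Sirt1cKO. Trichohyalin, Tchh, a protein of the hair root sheath, stood at 7.90, 7.30 and 7.66, so both were highest in WT. Cornulin, Crnn, a marker of stratified squamous epithelium, ran the other way at 8.70, 9.40 and 9.14. Repetin, Rptn, stood at 10.12, 9.93 and 10.38. Differences of these 4 measured genes ran from -0.60 to 0.69 in AireKO and from -0.35 to 0.44 in Sirt1cKO, all under 2-fold.

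Small proline-rich proteins are flexible cross-bridges of the envelope. Of 9 Sprr2 genes 5 were within background in all libraries, Sprr2i among them below WT in Sirt1cKO. The other 4 stood above WT in Sirt1cKO. Sprr2d and Sprr2j-ps, above background in all libraries, did so under every scaling tried, and neither reached 2-fold. Sprr2b and Sprr2e did so too, but they were above background in Sirt1cKO alone, so their detection there already favours that direction. Olfactory receptor genes had median differences of 0.70 in AireKO and 0.27 in Sirt1cKO. Sprr2d stood at 8.87 in WT, 8.85 in AireKO and 9.75 in Sirt1cKO, so it was high in Sirt1cKO alone. That difference from WT, 0.88, exceeded those of 98.7% of measured genes. Sprr2j-ps, a pseudogene in RefSeq, stood at 6.53, 7.07 and 7.27. Sprr2e stood at 5.82, within background, in WT, at 6.71, within background, in AireKO and at 6.70 in Sirt1cKO, which was at least 1.61-fold above WT. Sprr2b stood at 5.93, 6.60 and 6.51, the first 2 within background, and was at least 1.41-fold above WT in Sirt1cKO. These genes are near copies, so they are not 4 independent measurements.

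Of the other Sprr genes, Sprr4 also stood above WT in Sirt1cKO and Sprr1a, Sprr1b and Sprr3 below it. Sprr1a, induced by stress and in squamous cells, stood at 12.55 in WT, 12.14 in AireKO and 12.52 in Sirt1cKO. Sprr1b stood at 9.69, 9.02 and 9.31, below WT in both knockout libraries. Sprr3, a gene of oral and oesophageal epithelium, was above background in WT alone, at 7.06, with 6.50 and 6.31 in the others, which makes it at least 1.13-fold lower in AireKO and at least 1.65-fold lower in Sirt1cKO. Sprr4 was above WT in both, at 9.04, 9.80 and 9.64. Over the 6 measured Sprr genes the median difference was -0.22 in AireKO, 0.06 after median centring, and 0.28 in Sirt1cKO.

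The sequences before the Sprr genes share features. These genes were chosen by family name, and members of a family can be near copies. Sprr2d and Sprr2e are shown because their promoters are the closest pair of the family, with 90% of 250 bases identical in a global alignment, while all 21 Sprr2 pairs ran from 66.8% to 90% with a median of 69.6%. RefSeq sequences of the 250 bases before the transcription start on GRCm38.p6 follow for Sprr2d (chr3:92338890-92339139, plus strand) and Sprr2e (chr3:92351893-92352142, plus strand), 5′ to 3′, with capitals for matches on either strand to the TATA box, TATAAA, to the AP-1 element, TGANTCA, to the CCAAT box, and to the TATA-like element ATAAAA.

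Sprr2d: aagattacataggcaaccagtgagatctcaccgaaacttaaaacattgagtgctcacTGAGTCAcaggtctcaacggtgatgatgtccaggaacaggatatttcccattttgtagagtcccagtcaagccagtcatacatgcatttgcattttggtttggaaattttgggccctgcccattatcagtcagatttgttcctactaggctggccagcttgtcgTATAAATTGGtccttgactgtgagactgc

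Sprr2e: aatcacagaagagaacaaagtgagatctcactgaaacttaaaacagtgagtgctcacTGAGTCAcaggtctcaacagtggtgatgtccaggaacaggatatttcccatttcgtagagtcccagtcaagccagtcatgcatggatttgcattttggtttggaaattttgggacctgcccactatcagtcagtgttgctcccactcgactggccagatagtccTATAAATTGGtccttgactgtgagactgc

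In both, TATAAA begins 29 bases and the AP-1 element 193 bases before the start. Of 11 available Sprr promoters, 10 held TATAAA, or 90.9%, and 9 held TGANTCA, or 81.8%, on either strand. Sprr2 genes are near copies, so these 11 are not independent of each other. Among all 32851 promoters of that length, 12.4% held TATAAA and 6.75% held TGANTCA. The promoters of Ivl, Lor, Crnn and Rptn held both as well. A match describes letters and not binding, and neither AP-1 protein nor its binding was measured here.

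Late cornified envelope genes are a tandem cluster whose small proteins are laid down last, and here single copies differed from other measured copies. Lce1a1 stood at 8.14 in WT, at 6.51, within background, in AireKO and at 8.26 in Sirt1cKO. It was low in AireKO alone, at least 2.38-fold lower than in WT and at least 2.60-fold lower than in Sirt1cKO. Lce1h stood at 8.49, 7.48 and 7.99, a difference of -1.0 in AireKO that fell short of 2-fold under every other scaling, at -0.73 after median centring.

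Lce1k went the other way, at 7.95 in WT, 8.60 in AireKO and 7.85 in Sirt1cKO. Lce1i was close to background, at 6.05 in WT, 7.0 in AireKO and 6.05, within background, in Sirt1cKO. Lce1c stood at 7.93, 7.22 and 7.82, Lce1e at 7.95, 7.54 and 7.89, and Lce1j at 8.46, 8.55 and 8.76. Among the 7 measured Lce1 genes the differences in AireKO thus ran from the bound of -1.25 for Lce1a1 to 0.95. In Sirt1cKO they ran from -0.49 to 0.30, with 0 at 2-fold.

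Outside that block, Lce6a stood at 6.98 in WT, 7.62 in AireKO and 7.51 in Sirt1cKO, and Lce3c at 7.74, 7.53 and 7.70. Lce3a was above background in Sirt1cKO alone, at 6.53, with 5.56 in WT and 5.75 in AireKO, at least 1.43-fold above WT. Lce1a2, within background in all libraries, differed by 1.08 between AireKO and WT. Nothing is read from it, since the 15 members within background had a median difference of 0.26 in AireKO and olfactory receptor genes one of 0.70.

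Lce1a1 and Lce1h are shown because they were the Lce genes at least 2-fold lower in AireKO, from chr3:92648308-92648557, minus strand and chr3:92765066-92765315, minus strand, with the same marks and source.

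Lce1a1: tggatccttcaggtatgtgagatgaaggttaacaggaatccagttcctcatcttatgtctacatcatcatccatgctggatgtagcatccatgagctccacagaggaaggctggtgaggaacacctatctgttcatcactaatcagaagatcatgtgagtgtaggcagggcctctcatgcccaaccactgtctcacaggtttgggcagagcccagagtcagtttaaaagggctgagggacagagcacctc

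Lce1h: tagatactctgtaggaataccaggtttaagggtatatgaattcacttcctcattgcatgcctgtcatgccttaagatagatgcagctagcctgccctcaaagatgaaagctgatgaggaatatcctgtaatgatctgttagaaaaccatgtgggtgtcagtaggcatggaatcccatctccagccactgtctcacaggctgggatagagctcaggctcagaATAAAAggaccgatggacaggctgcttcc

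Of these bases 70.8% are identical in alignment, within the range of 60% to 85.6% over 66 Lce1 pairs. The AP-1 element was in 0 of 18 Lce promoters and TATAAA in 3. Lce genes are close copies, so these 18 promoters are not independent of each other. ATAAAA, searched after these sequences had been seen and sharing 5 bases with TATAAA, was in 17 of 18 and began 20 to 40 bases before the start in 15, or 83.3%, where 1.74% of all promoters hold it on the coding strand. Anywhere in the window 17% of all promoters hold it. It is not confined to Lce genes, being in 7 of 11 Sprr promoters, or 63.6%, and in 5 of them 20 to 40 bases before the start. Lce1h holds it 29 bases before the start. Lce1a1 is the 1 Lce promoter without it.

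**Figure D2:**
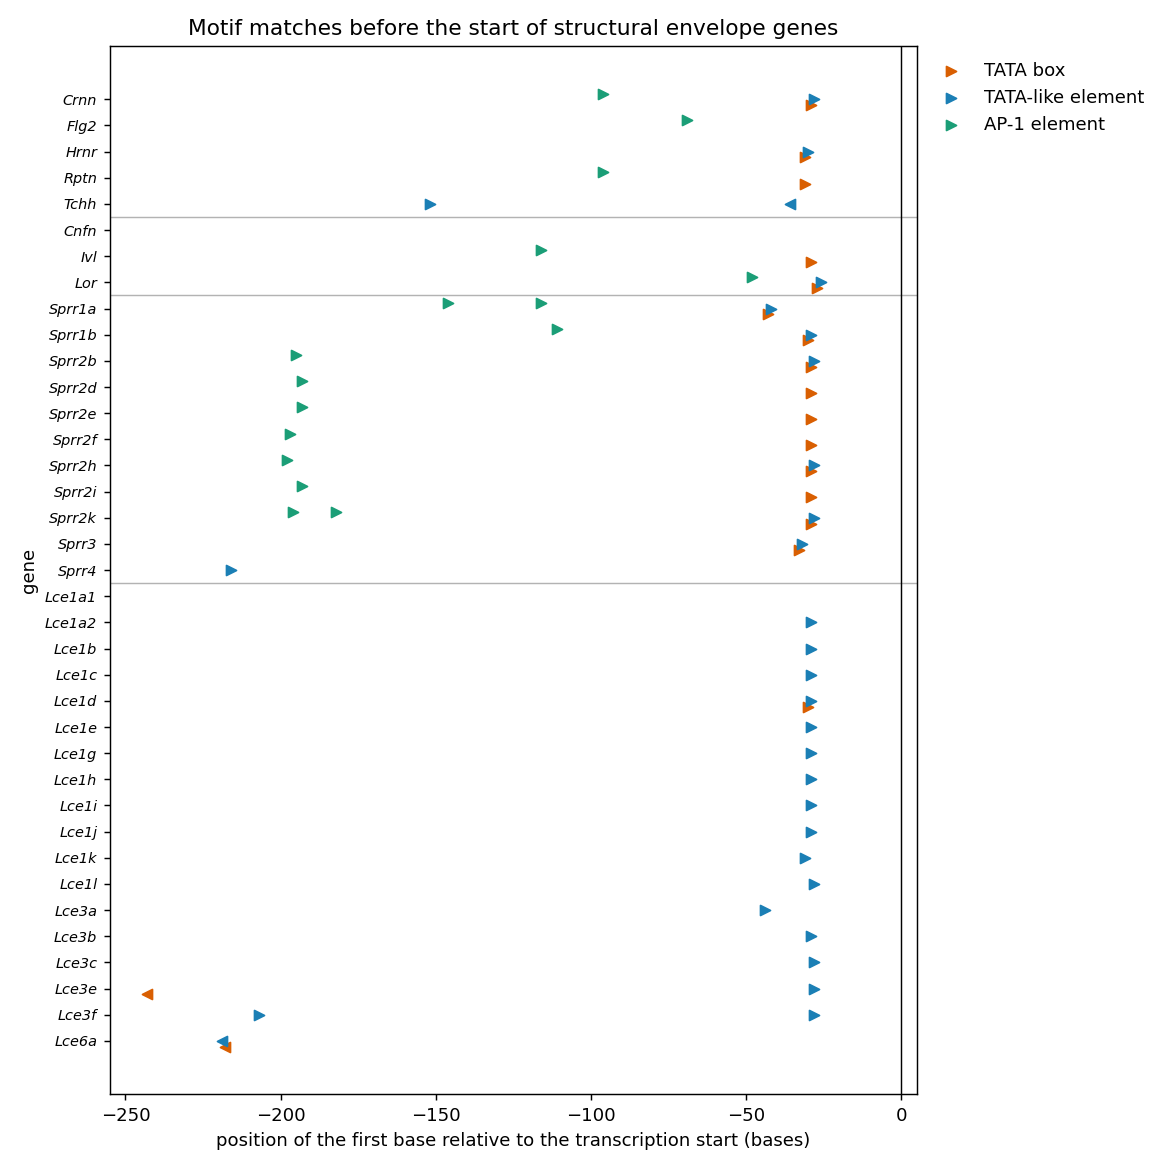
Matches to the TATA box, the TATA-like element found before Lce genes and the AP-1 element (triangles pointing right for the coding strand, left for the other) against distance from the transcription start in bases, for 37 structural envelope genes from RefSeq promoters. TATA boxes line up 29 bases before the start in Sprr2 genes and the TATA-like element near the same place in most Lce genes, while AP-1 matches occur in 0 of 18 Lce genes.

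Among the enzymes, the protease Asprv1 stood out from the rest. Asprv1 encodes the skin aspartic protease that cleaves profilaggrin in the outer epidermis. It stood at 11.46 in WT, 9.27 in AireKO and 10.09 in Sirt1cKO, highest in WT and lowest in AireKO. It was 4.59-fold lower in AireKO, a difference of -2.20, and only 0.50% of measured genes had a lower one. In Sirt1cKO the difference was -1.37, with 0.41% of measured genes lower. Both differences passed 2-fold under all scalings.

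The RefSeq promoter of Asprv1 (chr6:86627924-86628173, plus strand) is shown because this was the single member at least 2-fold lower in both knockout libraries. With the same marks it holds a CCAAT 72 bases before the start, as 33.8% of all promoters hold a CCAAT on either strand, and neither TATAAA nor TGANTCA.

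Asprv1: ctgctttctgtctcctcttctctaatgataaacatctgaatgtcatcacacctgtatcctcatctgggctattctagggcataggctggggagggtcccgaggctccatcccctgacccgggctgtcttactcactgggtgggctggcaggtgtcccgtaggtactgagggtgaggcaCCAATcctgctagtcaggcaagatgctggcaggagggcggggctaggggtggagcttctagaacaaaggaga

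The other enzymes were lower in AireKO by less. Casp14, the protease of filaggrin breakdown, stood at 7.62 in WT, at 6.69, within background, in AireKO and at 7.49 in Sirt1cKO, at least 1.67-fold lower in AireKO. Tgm1, the main membrane-bound transglutaminase of the envelope, stood at 8.70, 8.16 and 8.87, and Tgm3, a transglutaminase of late epidermis and hair, at 8.57, 8.16 and 8.49. All 4 enzymes were below WT in AireKO under every scaling, with a median difference of -0.74, where 8003 of 12556 measured genes were below WT. Corneodesmosin, Cdsn, the adhesive protein of the horny layer, stood at 8.55, 8.07 and 8.44.

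S100a genes encode small calcium-binding proteins, and many are active outside skin. S100a5, best known from olfactory sensory neurons, stood at 7.21 in WT, 9.57 in AireKO and 7.72 in Sirt1cKO. It was high in AireKO alone, 5.11-fold above WT, with 99.8% of measured genes having a lower difference, and 3.60-fold above Sirt1cKO. Its neighbours S100a4 and S100a6 differed from WT by 0.28 and -0.06 in AireKO. Its promoter (chr3:90608272-90608521, plus strand) is shown as that of the single member at least 2-fold higher than in WT.

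S100a5: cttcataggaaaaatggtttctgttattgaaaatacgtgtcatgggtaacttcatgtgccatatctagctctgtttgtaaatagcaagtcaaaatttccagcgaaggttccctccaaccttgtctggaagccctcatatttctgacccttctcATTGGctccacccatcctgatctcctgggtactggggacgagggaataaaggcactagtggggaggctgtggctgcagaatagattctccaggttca

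It holds CCAAT on the opposite strand, 97 bases before the start, and neither TATAAA nor TGANTCA.

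In Sirt1cKO the S100a genes leaned below WT. Of the 12, 9 were below it under every scaling, with a median of -0.39, beside 7331 of 12556 measured genes, and 0 reached 2-fold. S100a6, a gene of proliferating and stromal cells, stood at 8.96 in WT, 8.89 in AireKO and 8.01 in Sirt1cKO. S100a10, the annexin A2 partner, stood at 11.07, 10.79 and 10.19. S100a14 stood at 10.61, 10.34 and 9.90, and S100a4 at 8.75, 9.03 and 8.30, so all 4 were lowest in Sirt1cKO. S100a16 was below WT in both, at 11.80, 10.92 and 11.04.

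The exceptions were S100a11, S100a1 and S100a5. S100a11, which binds annexin A1 and is also an envelope component, stood at 13.14 in WT, 13.77 in AireKO and 13.72 in Sirt1cKO, and its dimmer probe set gave differences of 0.60 and 0.44 in the same direction. S100a1 stood at 11.59, 11.98 and 11.97. S100a2 stood at 8.05, 8.08 and 7.88, S100a3, found in hair cuticle, at 9.30, 9.20 and 8.87, and S100a13 at 8.77, 8.84 and 8.57. S100a7a, the mouse psoriasin relative, stood at 6.91, at 6.43, within background, and at 6.54. The median of the 12 in AireKO, -0.01, lay above 0 under every other scaling, at 0.26 after median centring.

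Of the 57 members 51 lie on chromosome 3, in the gene order of the complex. In AireKO Lce1a1 and Lce1h lay among Lce1 genes on both sides of WT. Of the genes near them, Lce1b, Lce1a2 and Lce1g were within background in all libraries, and Lce1i passed the filter through AireKO alone. S100a5 lay between neighbours close to WT in AireKO. Crnn and Hrnr, the members next to Flg2 in an order that leaves out Flg, differed from WT by 0.69 and -0.60 in AireKO. In Sirt1cKO some neighbours stood on the same side of WT. The run of S100a13, S100a14, S100a16, S100a3, S100a2 and S100a4 lay below WT, by -0.76 to -0.16. The run from Sprr2b to Sprr2h lay above it, by 0.26 to 0.89, though 3 of these 6, Sprr2f, Sprr2g and Sprr2h, were within background in all libraries. The next gene, Sprr2i, also within background in all, differed from WT by -0.16. Whether neighbours differ together was not tested. The remaining 6, Asprv1, Casp14, Cdsn, Cnfn, Tgm1 and Tgm3, lie on other chromosomes.

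**Figure D3:**
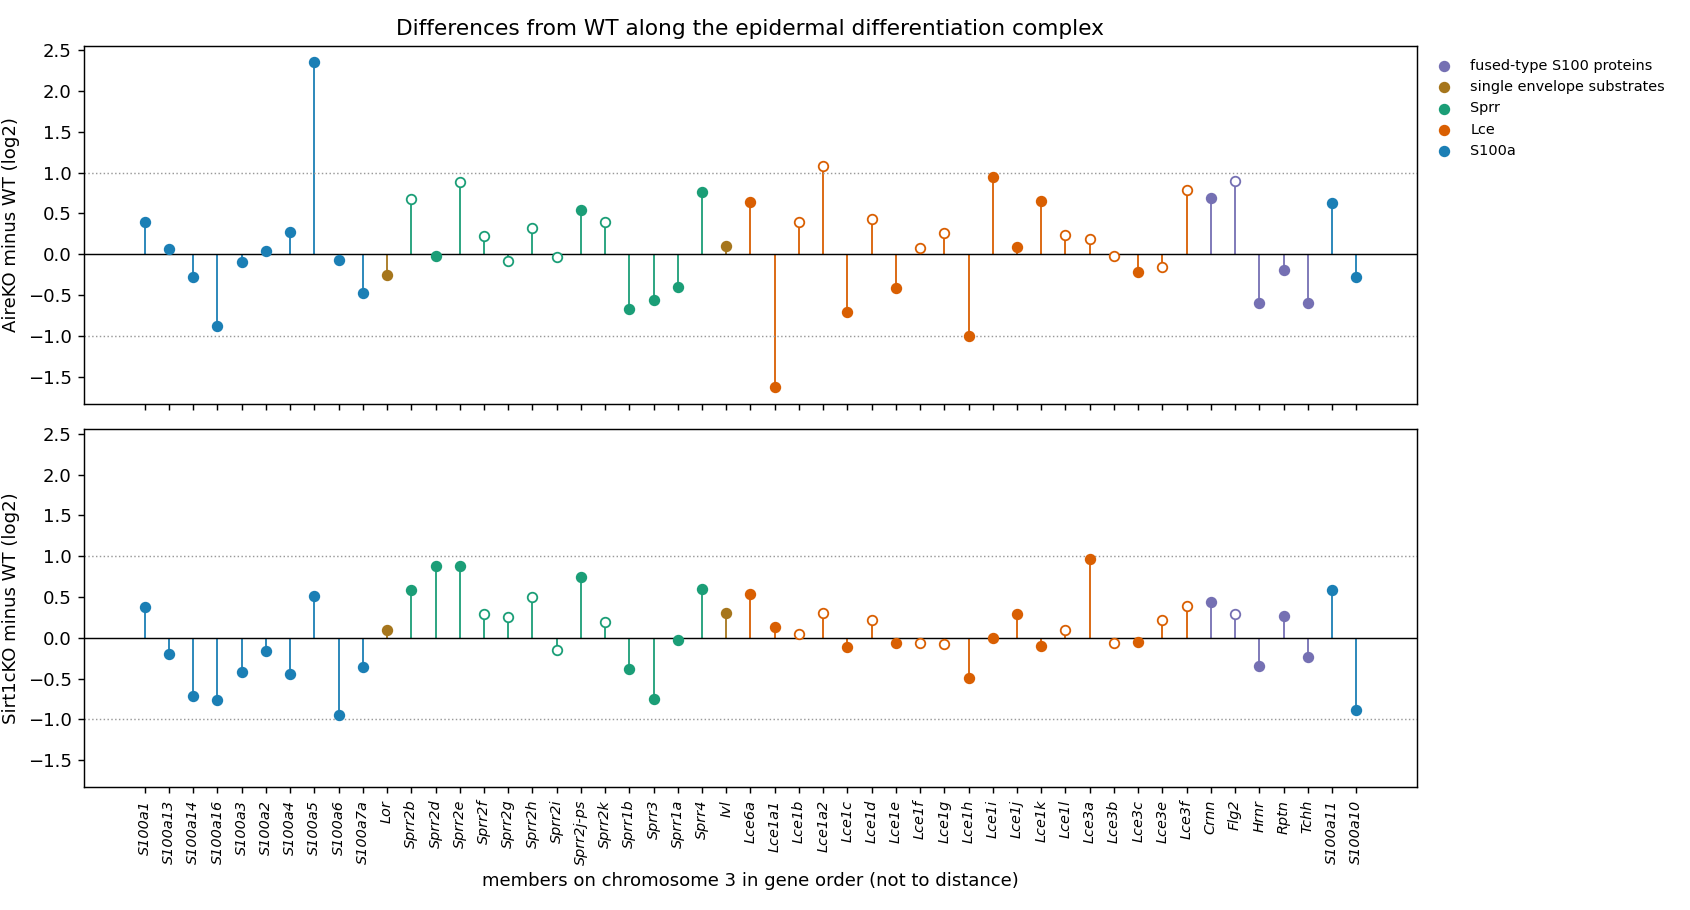
Differences from WT on the log2 scale (vertical axis) in AireKO, upper panel, and Sirt1cKO, lower panel, for the 51 members on chromosome 3 in gene order, coloured by family. Dotted lines mark 2-fold and open points genes within background in both libraries; Lce1a1, Lce1h and S100a5 reach 2-fold in AireKO among measured genes, and 0 do so in Sirt1cKO.

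Directly between the knockout libraries, Lce1a1 was at least 2.60-fold higher in Sirt1cKO than in AireKO, and S100a5 was 3.60-fold lower. They were 1 of 39 measured members in each direction, or 2.56%, where 2.72% of all measured genes were at least 2-fold higher and 1.04% lower. At 1.5-fold 6 members were lower in Sirt1cKO than in AireKO, or 15.4%, beside 4.55% of all measured genes, and 7 were higher, or 17.9%, beside 11.8%. The 6 were S100a4, S100a5, S100a6, S100a10, Lce1i and Lce1k, of which Lce1i passed the filter through AireKO alone. The median difference of Sirt1cKO minus AireKO was 0.20 over the measured members, beside 0.11 over all measured genes.

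Other genes of epidermal differentiation were put in 5 lists with earlier results of these data known, so their shares are description alone. They included more genes that were lower in AireKO, beside the 8.46% of all measured genes. Of 18 measured genes for proteases, inhibitors and filaggrin processing, 9 were at least 2-fold lower and 0 higher, with 7 lower after median centring. The list counts take values as measured, and these 9 include Klk5, within background in AireKO, with a bound of 1.41-fold. All 18 were below WT under every scaling, where 8003 of 12556 measured genes were below it before rescaling. Median centring put 4.36% of all measured genes past 2-fold on the lower side and 5.62% on the higher, which are the shares to set beside each centred count that follows. Klk14, a kallikrein of skin shedding, stood at 9.76 in WT, 7.58 in AireKO and 8.77 in Sirt1cKO. Prss8, the channel-activating protease prostasin, stood at 8.88, 7.01 and 8.54, Furin at 9.30, 7.54 and 8.76 and the lysosomal protease Ctsd at 10.88, 9.16 and 10.32. The median of this list was -0.95 in AireKO and -0.32 in Sirt1cKO. There 1 gene was at least 2-fold lower, beside 1.68% of all measured genes. It was Klk5, within background in Sirt1cKO too, with a bound of 2.05-fold.

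Keratins and suprabasal secreted genes gave 9 of 22 at least 2-fold lower in AireKO and 0 higher, with 6 lower after median centring. Krt1, the keratin of the spinous layer, stood at 9.60 in WT, 7.56 in AireKO and 8.89 in Sirt1cKO, and Lypd3 at 10.25, 8.18 and 9.57. Ly6d stood at 12.02, 10.37 and 11.93, low in AireKO alone. Krt4 stood at 7.52, at 5.93, within background, and at 6.61. It is among the 9, though its bound in AireKO, 1.55-fold, lies under 2-fold. In Sirt1cKO 2 of the 22 were at least 2-fold lower, beside 1.68% of all measured genes, and 0 after any other scaling.

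Barrier lipid genes gave 9 of 23 lower and 0 higher in AireKO, with 3 lower after median centring. Alox15, a lipoxygenase, was lower in both, at 11.34, 9.85 and 10.11, and the ichthyosis gene Alox12b stood at 9.09, 7.81 and 8.58. Lipk stood at 7.80, at 6.45, within background, and at 7.85, and the ceramidase gene Acer1 at 7.14, at 5.91, within background, and at 6.78. Both are among the 9, though their bounds in AireKO, 1.89-fold and 1.19-fold, lie under 2-fold. Envelope scaffold and desmosome genes gave 5 of 16 lower and 1 higher, with 2 and 1 after median centring. Plakoglobin, Jup, stood at 11.37, 10.02 and 11.20, annexin A1, Anxa1, at 11.09, 9.95 and 10.67 and the transglutaminase Tgm2 at 9.94, 8.62 and 9.0. The higher gene was the stefin Stfa2, at 6.24, 7.83 and 6.57, which passed the filter through AireKO alone.

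Regulators of epidermal differentiation gave 5 of 33 lower and 0 higher. After median centring 2 were lower and 1 higher, near the shares of all measured genes. Elf3, an epithelial Ets factor, stood at 10.66, 9.28 and 10.60, Notch2 at 10.06, 8.97 and 9.51, Fosl2, a subunit of AP-1, at 9.52, 8.42 and 8.99, and Cebpb at 8.03, at 6.56, within background, and at 7.38. In Sirt1cKO 0 regulators and 0 scaffold genes were at least 2-fold apart from WT, and 1 lipid gene, Alox15, was lower. Of all measured genes 1.68% were lower and 0.804% higher there. The lists were set up with earlier results of these data known, and the difference between them and the members was not tested.

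**Figure D4:**
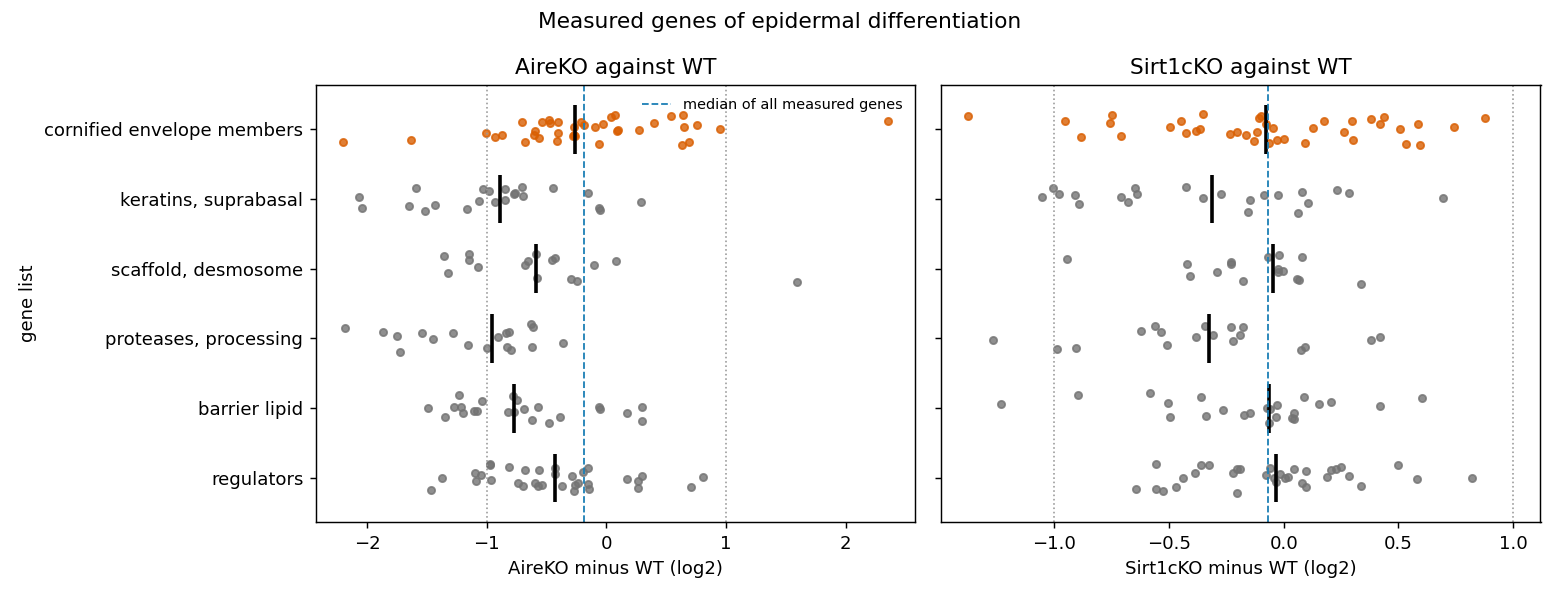
Differences from WT on the log2 scale (horizontal axes, 1 panel for each knockout library) for each measured gene of the members and of 5 other lists. Vertical bars mark list medians, the dashed line the median of all measured genes and dotted lines 2-fold; in AireKO the members centre at -0.26 and the proteases at -0.95.

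Markers of other cells moved with these libraries, and their part in the results was not tested. Fewer genes of any kind passed the background of AireKO, which lay at 6.89, than that of WT, at 6.02. The share of all genes that did so was 56.1% for AireKO, 67.1% for Sirt1cKO and 72.7% for WT. These shares are to be set beside each count of detected markers that follows. The 12 neutrophil markers summed to an intensity of 6403 in WT, 1585 in AireKO and 3589 in Sirt1cKO, with 9, 4 and 8 above background, and Mmp8, Cxcr2 and Csf3r within it in all. For 10 macrophage and dendritic cell markers the sums were 6054, 3663 and 4106, with 9, 6 and 8 above background. Clec9a was within it in all, Itgam, Itgax and Adgre1 in AireKO, and Flt3 in Sirt1cKO. Without Lyz2, the brightest of these markers, the sums were 1794, 1932 and 1650. AireKO was then not the lowest, though its sum holds those values within background. Without Ly6g, the brightest in WT, the neutrophil sums were 4400, 1490 and 2800. For 12 thymocyte markers they were 1634, 2011 and 2033, with 8, 7 and 8 above background. Cd3d, Rag2, Ptcra and Dntt were within it in all. Fibroblast and endothelial markers summed to 2173, 5305 and 2998 over 10 genes, with 7, 6 and 7 above background. Pdgfra, Lum and Kdr were within it in all, and Dcn stood at 10.08, 11.98 and 10.87. Without Dcn these markers summed to 1090, 1273 and 1125. B cell markers summed to 1013, 1024 and 961.9 over 5 genes, with 4, 2 and 2 above background. Cd79a was within it in all, and Ms4a1 and Cd22 in both knockout libraries.

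Thymic epithelial lists also differed between the libraries. Mature medullary markers summed to 62660 in WT, 46760 in AireKO and 51190 in Sirt1cKO over 13 genes, and the keratins Krt5, Krt14, Krt8 and Krt18 to 20930, 12900 and 16000. Cortical markers summed to 8520, 6982 and 7464 over 7 genes, with Psmb11 within background in AireKO and Cxcl12 in both knockout libraries. The 11 markers of keratinocyte-like medullary cells, every one of them also on a list described above, were above background in every library and summed to 11420, 7647 and 9931. Of these 11, 3 were at least 2-fold lower in AireKO and 1 in Sirt1cKO, beside 8.46% and 1.68% of all measured genes. The 1 was Calm4, at 8.51 in WT, 7.08 in AireKO and 7.50 in Sirt1cKO. Its call in Sirt1cKO was lost under every other scaling, which left 0 of the 11, and the count in AireKO became 2. Krt10, the partner of Krt1, stood at 10.84, 9.81 and 9.86. Krtdap was above WT in both knockout libraries, at 10.55, 10.84 and 10.79. Of the 11, 10 were below WT in AireKO and 8 in Sirt1cKO, beside 8003 and 7331 of 12556 measured genes.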

How the data were processed

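The authors deposited linear probe set intensities of 3 Affymetrix Mouse Gene 1-ST arrays, made with RMA, per the submitters' processing notes. The version of RMA is not given in the sources used here. RMA shares signal across arrays, so the levels are not independent. Intensities were taken to log2. Of 34760 probe sets, 21640 carried 1 gene symbol, 1321 several and 11799 none in the platform annotation, and the brightest single-symbol probe set stood for each of 19937 genes. All 57 members matched RefSeq by Entrez ID. The RefSeq tables (GRCm38.p6) gave names, gene order and promoters, and 51 members had a promoter there.

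Libraries were grouped by genotype label, 1 each, so differences of log2 values carry no error and no test, and 3 arrays limit the precision. At least 2-fold counts as lower or higher. Where a value lies within background, a fold is a bound against that library's background, while counts at a threshold take values as measured. The members and lists were chosen with earlier results of these data known. Every member above background in some library was named. From each other list up to 4 measured genes with the largest absolute difference from WT in either knockout were eligible. Klk5 and Krtdap were added beyond that rule. Scripts (Python 3.11.15, numpy 2.4.6, pandas 2.3.3, statsmodels 0.14.6) were tested on simulated data. Alternatives covered scaling (quantile, loess with span 0.3, median centring), filters, background, thresholds and exchanged labels. Setting the median difference to 0 was added after seeing the data.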

Additional observations from a re-analysis of the deposited data

How the results depend on the processing

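No paired analysis was possible because each genotype had 1 library, and no library could be left out. The median difference of the measured members in AireKO, Sirt1cKO and Sirt1cKO minus AireKO was -0.26, -0.08 and 0.20. It became -0.12, -0.05 and 0.13 after quantile normalization, -0.08, -0.03 and 0.11 after loess, and 0.01, 0.02 and 0.03 after median centring. With the filter at the 25th percentile it was -0.03, 0.03 and 0.03, with the filter at background -0.20, -0.05 and 0.18, and with no filter -0.02, 0.05 and -0.01. With values floored at background it was -0.19, -0.08 and 0.20, with the median difference of all measured genes set to 0 it was -0.07, -0.01 and 0.09, and with the knockout labels exchanged -0.08, -0.26 and -0.20.

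At 1.5-fold 9 members were lower and 7 higher in AireKO, 6 and 3 in Sirt1cKO, and 6 and 7 in Sirt1cKO against AireKO, beside 23.6% and 8.52%, 8.27% and 4.01%, and 4.55% and 11.8% of all measured genes. At 3-fold the counts of measured values were 2 and 1, 0 and 0, and 1 and 1. Beside them stood 1.86% and 0.741%, 0.183% and 0.112%, and 0.207% and 0.518% of all measured genes. These counts include Lce1a1, whose bounds of 2.38-fold and 2.60-fold lie under 3-fold. At 2-fold in AireKO 2 were lower and 1 higher after quantile normalization or loess, beside 6.67% and 3.31%, and 6.04% and 3.47%, of all measured genes. After median centring the counts were 2 and 3, beside 4.36% and 5.62%. Once all differences were shifted to a median of 0 the counts were 2 and 2, beside 5.3% and 4.49%. With the filter at the 25th percentile or with none the counts were 3 and 2, beside 6.29% and 3.34%, and 5.51% and 3.2%. In Sirt1cKO against AireKO 2 were lower after quantile normalization, loess or the shift to a median of 0, and 3 after median centring. The shares of all measured genes lower there were 1.23%, 1.15%, 1.4% and 1.8%.

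With labels exchanged the counts were 1 and 0 in AireKO and 3 and 1 in Sirt1cKO. The shares of all measured genes were then 1.68% and 0.804%, and 8.46% and 2.68%. As measured, with 1 value within background, Lce1a1 then differed by 0.13 in AireKO, -1.63 in Sirt1cKO and -1.76 between them, and S100a5 by 1.85 between them. Lce1h in AireKO was -0.90 after quantile normalization, -0.84 after loess, -0.73 after median centring and -0.82 with the median difference set to 0. With background at the 90th percentile 44, 38 and 43 members were above it in WT, AireKO and Sirt1cKO, and at the 99th 36, 27 and 36. The cause of these changes was not tested.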

Other observations

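Besides the 57 members, 3 probe sets were annotated to several Lce or Sprr genes at once and name no single gene. The one for 2 Sprr genes stood at 12.33 in WT, 12.05 in AireKO and 12.95 in Sirt1cKO, and the one for 4 Sprr genes at 13.24, 13.08 and 13.71. Both were highest in Sirt1cKO, by 0.62 and 0.47 over WT, and under 2-fold. The one for 6 Lce genes stood at 8.78, 8.87 and 8.50.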
